A study of Drosophila melanogaster with 8 samples.

Results

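The genes described here encode mitochondrial ribosomal proteins of Drosophila melanogaster. A member is a gene whose current symbol begins with mRpL (large subunit) or mRpS (small subunit) followed by a number. The array had 48 members, 29 of the large and 19 of the small subunit, in 108 of its 27648 rows and among 6795 named genes. The RefSeq table holds 73 genes that fit this rule, and the other 25 are not analysed here. The members were chosen by name, by a rule that uses no measured value, but with earlier results of these data known.

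The mitochondrial ribosome translates the few proteins that the mitochondrial genome encodes, all of them membrane subunits of the respiratory chain and of ATP synthase. Its rRNAs are made inside the organelle, whereas all its proteins are encoded in the nucleus, translated in the cytosol and imported. Some members descend from bacterial ribosomal proteins, most under the same number, and others were gained by the mitochondrion. In flies, a mutation of the small-subunit protein gene tko causes bang-sensitive seizures. tko and bonsai carry other names and so fall outside the rule. They were looked for separately but were not among the named genes of the array, so they could not be analysed here.

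All flies were unmated males of the wild-type strain Oregon-R, 3 to 4 days old at the start, and RNA came from pooled whole heads. Treated flies ate pentylenetetrazole, a convulsant that blocks GABA-A receptors, for 7 days and then the antiepileptic drug and histone deacetylase inhibitor sodium valproate for 3 days. They were taken at that point (day 10, n = 4 arrays) or after 4 further days on normal food (day 14, n = 4 arrays), each against parallel flies kept on normal food throughout. Sources conflict on the doses: pentylenetetrazole was at 8 mg/ml per the labels but 0.33 mg/ml per the series text, and valproate at 0.33 or 24 mg/ml, respectively. On replicates 1 and 2 of each day the treated RNA carried Cy5, and on replicates 3 and 4 it carried Cy3.

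Values are log2 ratios of treated over control RNA with the median of each array set to 0, so they hold no expression level. An array had values for 20 to 40 of the 48 members. The arrays with fewest were day 14 replicate 2, with 20, and day 14 replicate 4, with 24. The ratios were taken as Cy5 over Cy3, which is likely but not stated, and the sign of the swapped arrays was turned. Arrays of opposite orientation shared their print-block pattern over the slide in 32 of 32 comparisons before turning, with correlations of 0.082 to 0.84. These were 2 comparisons for each of 16 pairs made from the same arrays, so they are not independent. Over all rows, 15 of 16 pairs of opposite arrays correlated above 0 before turning, and so below 0 after it, down to -0.43. Every direction below therefore depends on this reading, and values with the swapped arrays left as deposited, written "as deposited", are given with the results. In whole heads, fewer cells of a type and less RNA per cell cannot be told apart.

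Neither day showed a change in any member that passed the test. At day 10, 38 members had values on at least 3 of the 4 arrays (21 large, 17 small), and limma called 0 of them at an adjusted p under 0.05, against 0% of all 11511 features tested. No member had an unadjusted p under 0.05, against 6.68% of features, and the lowest adjusted p was 0.727. The fitted ratios ran from -0.38 to 0.39. Their median was 0.020 with 18 of 38 below 0, beside 0.041 with 43.5% below 0 for all features. The members as a whole therefore lay close to the other features on the array. At day 14, 21 members could be tested (9 large, 12 small) among 7529 features. Again 0 were called, against 0% of features, and 0 had an unadjusted p under 0.05, against 3.98%. The fitted ratios ran from -0.40 to 0.28 with a median of 0.021 and 10 of 21 below 0, beside -0.0026 and 50.7% for all features.

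**Figure D1:**
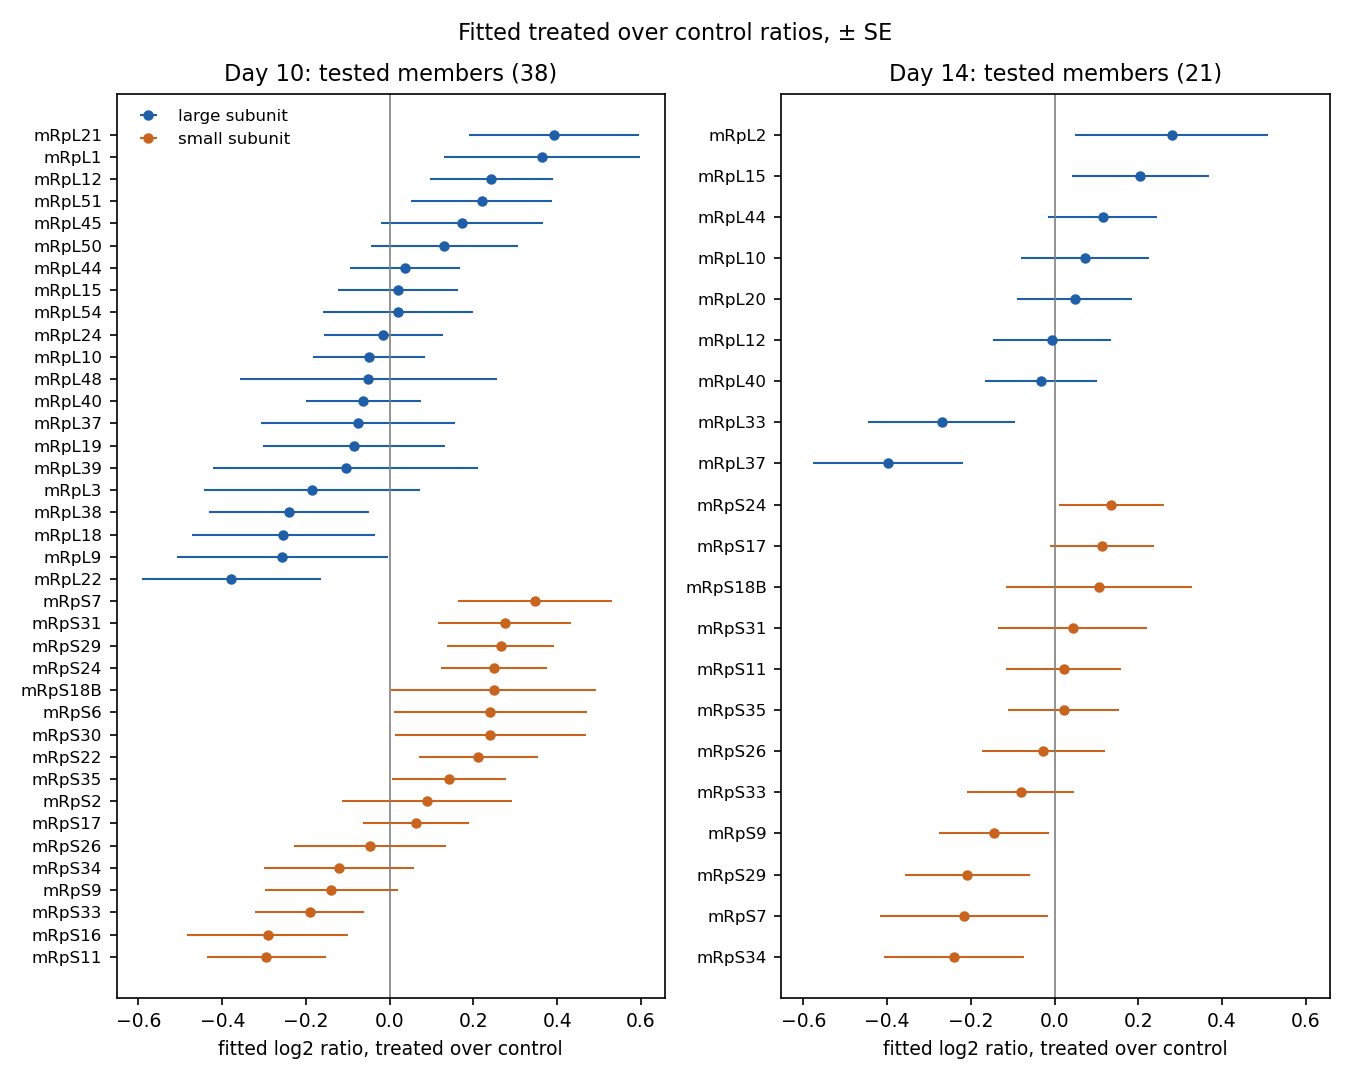
Fitted log2 ratios of treated over control RNA (horizontal axis) with the standard error of the limma fit (bars), for each of the 38 members tested at day 10 and the 21 tested at day 14, large subunit in blue and small subunit in orange. Members of both subunits lie on both sides of 0 on both days, between -0.40 and 0.39.

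The large and small subunits were compared by the median of their members on each array. At day 10 the large-subunit median was -0.093, -0.21, 0.18 and 0.11 on replicates 1 to 4. The small-subunit median was -0.069, -0.17, 0.049 and 0.25. Both subunits lay below 0 on the arrays with treated RNA in Cy5 and above 0 on the swapped ones, so the array median moved with the dye more than with the subunit. The large minus small difference was -0.024, -0.033, 0.13 and -0.14, with a mean of -0.017 ± 0.11 (SD, n = 4), and was smaller than the spread between arrays. At day 14 the large-subunit medians were 0.063, -0.34, 0.14 and 0.051, and the small-subunit medians 0.085, -0.036, 0.023 and -0.050. The lowest of these came from replicate 2, where 9 large-subunit members had a value. The difference at day 14 was -0.027 ± 0.20 (SD, n = 4), with the large subunit lower on 2 of 4 arrays, and also lay within the spread. Without that replicate the large-subunit median at day 14 was 0.085 and the difference 0.066, and without day 10 replicate 4 the difference at day 10 was 0.025. With the swapped arrays left as deposited, the mean difference was -0.012 at day 10 and -0.14 at day 14.

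**Figure D2:**
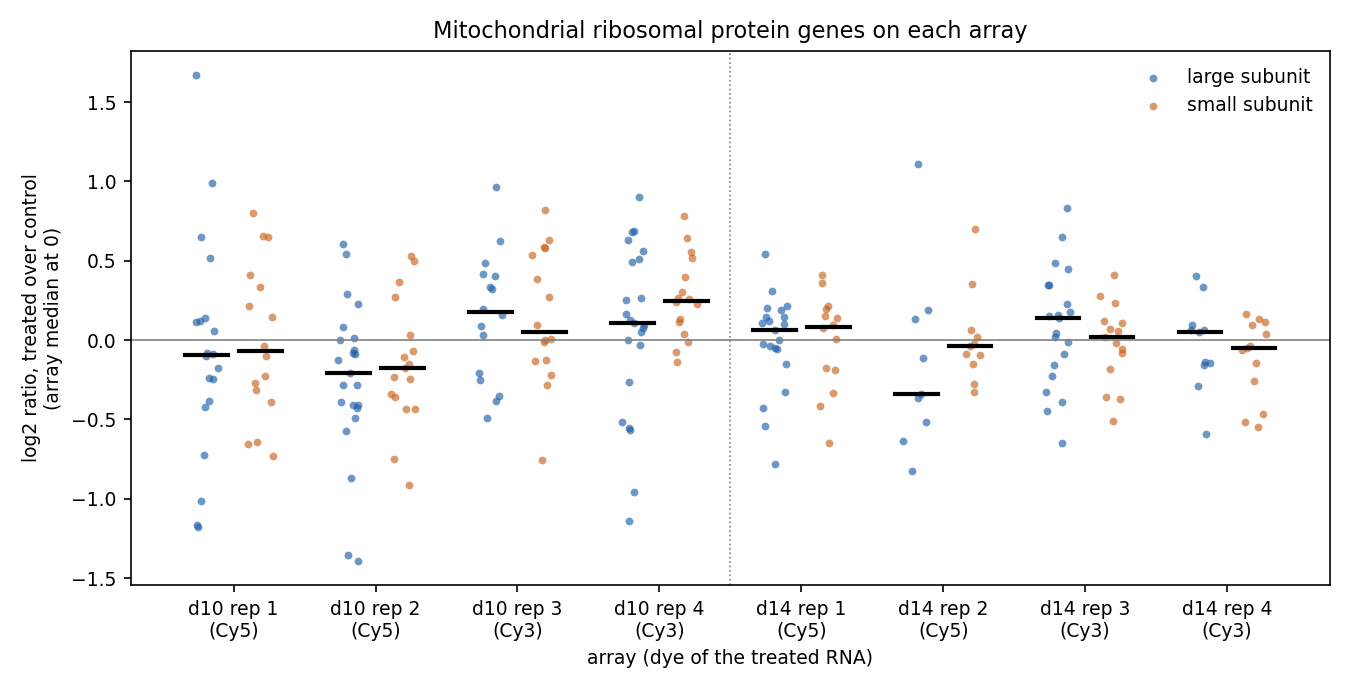
Log2 ratio of treated over control RNA for every measured member on each of the 8 arrays, with the array median at 0, large subunit in blue, small subunit in orange and subunit medians as black bars. The 2 subunits overlap on every array, and at day 10 both medians lie below 0 on the arrays with treated RNA in Cy5 and above 0 on those with it in Cy3.

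The medians of the fitted values per gene were -0.049 for the 21 large-subunit members and 0.14 for the 17 small-subunit members at day 10, with 12 and 6 below 0. This gap is larger than the one between the array medians, which average over genes first, and with the swapped arrays left as deposited it was the other way round, at -0.23 and -0.27. At day 14 the fitted medians were 0.048 for the large and -0.0026 for the small subunit, and -0.24 and 0.021 with the swapped arrays left as deposited, again in the opposite order. Splitting the members by number, which follows ancestry for most but not all of them, gave medians of -0.015 for 19 members in the range of the bacterial proteins and 0.037 for 19 with higher numbers at day 10. At day 14 they were 0.048 for 11 and -0.029 for 10. As deposited they were -0.27 and -0.15 at day 10 and -0.081 and -0.091 at day 14.

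Among small-subunit members at day 10, the lowest was mRpS11, whose bacterial counterpart sits on the platform of the subunit. It stood at -0.65, -0.23, -0.28 and -0.010 on replicates 1 to 4. All 4 arrays lay below 0, and the fitted ratio was -0.29 ± 0.14 (SE, n = 4, limma adjusted p = 0.727). Its 2 clones on the array gave means of -0.31 on 4 arrays and -0.28 on 3, and differed by at most 0.055 on any array. At day 14 the same gene was at 0.20, -0.023, 0.060 and -0.15, on both sides of 0, with a fitted ratio of 0.022 ± 0.14. Leaving the swapped arrays as deposited kept mRpS11 below 0 at day 10, at -0.15. Without replicate 1 its fitted ratio at day 10 was -0.17.

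The highest small-subunit member at day 10 was mRpS7, a protein of the head of the subunit in bacteria. Its values were 0.80, 0.37, 0.093 and 0.13, above 0 on all 4 arrays, and the arrays with treated RNA in Cy5 were higher than the swapped ones. The fitted ratio was 0.35 ± 0.18 (SE, n = 4), or 1.27-fold, and 0.24 with the swapped arrays left as deposited. At day 14 it was at -0.65, -0.056 and 0.042 on replicates 1, 3 and 4, with a fitted ratio of -0.22 ± 0.20 that rests mainly on replicate 1 (-0.19 as deposited). Of the 38 members tested at day 10, 2 lay below 0 on every array measured, against 6.17% of features, and 1 lay above 0 on every array, against 6.38%. The second member below 0 was mRpS9. With the swapped arrays left as deposited, 15 of 38 lay below 0 on every array, against 19.1% of features, and 4 above, against 21%.

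mRpS29, the fly counterpart of the GTP-binding death-associated protein DAP3, was at 0.65, 0.50, -0.13 and 0.036 at day 10. The arrays with treated RNA in Cy5 were high and the swapped ones near 0, and the fitted ratio was 0.26 ± 0.13 (0.31 as deposited). At day 14 its values were 0.075, -0.084 and -0.36 on replicates 1 to 3, with a fitted ratio of -0.21 ± 0.15 that turned to 0.087 with the swapped arrays left as deposited. mRpS24, whose mammalian counterpart is related to a bacterial protein of the subunit's head, was at 0.33, 0.53, -0.12 and 0.26 at day 10 and at 0.41, 0.35, -0.18 and -0.040 at day 14. At day 10 all but replicate 3 were above 0, and at day 14 both arrays with treated RNA in Cy5, with fitted ratios of 0.25 ± 0.13 and 0.14 ± 0.13 (0.18 and 0.25 as deposited). Without day 10 replicate 4 the first was 0.16.

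Among large-subunit members at day 10, mRpL21, numbered after a bacterial rRNA-binding protein, was the highest. It stood at -0.098, 0.29 and 0.69 on replicates 1, 2 and 4, a wide spread over 3 arrays, with a fitted ratio of 0.39 ± 0.20. Its adjacent duplicate spots differed by a median of 0.57 and by up to 1.56 on an array, beside a median of 0.19 over all members. The lowest was mRpL22, whose bacterial counterpart lines the tunnel through which the new protein leaves the ribosome. Its values were -1.18, -0.49 and 0.077 on the same 3 arrays, and the fitted ratio was -0.38 ± 0.21 (1.30-fold lower). mRpL12, the stalk protein that recruits translation factors, was at 0.058, -0.065, 0.42 and 0.56. Its swapped arrays were the higher ones, and its fitted ratio was 0.24 ± 0.15. For mRpL12 the 2 clones differed by up to 0.76 on 1 array. With the swapped arrays left as deposited, mRpL21 and mRpL12 turned to -0.29 and -0.25, whereas mRpL22 stayed below 0, at -0.46.

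At day 14 the lowest member of all was mRpL37, a mitochondrion-specific protein of the large subunit. Its values were -0.78, -0.82, 0.17 and -0.16, low on both arrays with treated RNA in Cy5 and close to 0 on the swapped ones. The fitted ratio was -0.40 ± 0.18 (SE, n = 4, 1.32-fold lower), with a limma p of 0.0503 before and 0.999 after adjustment. As deposited it was -0.41. At day 10 mRpL37 was at 0.23, -0.39 and 0.097 on replicates 2 to 4, on both sides of 0. mRpL33, named after a bacterial protein, had no value at day 10, and at day 14 it was at -0.54, -0.64 and 0.051 on replicates 1, 2 and 4 with a fitted ratio of -0.27 ± 0.18 (-0.32 as deposited).

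The highest member at day 14 was mRpL2, counterpart of a bacterial protein next to the peptidyl transferase centre. It was at 0.31, 1.11, -0.15 and -0.14, so replicate 2 was the highest, and the fitted ratio was 0.28 ± 0.23 (0.43 as deposited). mRpL15 was at -0.050, 0.65 and 0.34 on replicates 1, 3 and 4, with a fitted ratio of 0.20 ± 0.16. Of the small subunit, mRpS34 was at 0.22, -0.15, -0.51 and -0.52 and had a fitted ratio of -0.24 ± 0.17. The swapped arrays of mRpL15 and mRpS34 carried the fitted direction, and left as deposited they turned it, to -0.31 and 0.27.

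mRpS9, which in bacteria reaches the tRNA in the P site, was below 0 on all 7 arrays that measured it. It was at -0.036, -0.22 and -0.14 on day 10 replicates 1, 3 and 4, and at -0.42, -0.036, -0.080 and -0.050 at day 14. Day 14 replicate 1 stood apart from the other 3. The fitted ratios were -0.14 ± 0.16 and -0.15 ± 0.13, which with the swapped arrays left as deposited were 0.065 and -0.081. Without day 14 replicate 1 the second was -0.040. mRpS9 was the 1 member of 21 below 0 on every array at day 14, against 9.62% of features, and mRpS31 the 1 above 0 on every array, against 8.82%. Left as deposited, the swapped arrays gave 6 of 21 below 0 on every array, against 15% of features, and 3 above, against 12.6%.

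**Figure D3:**
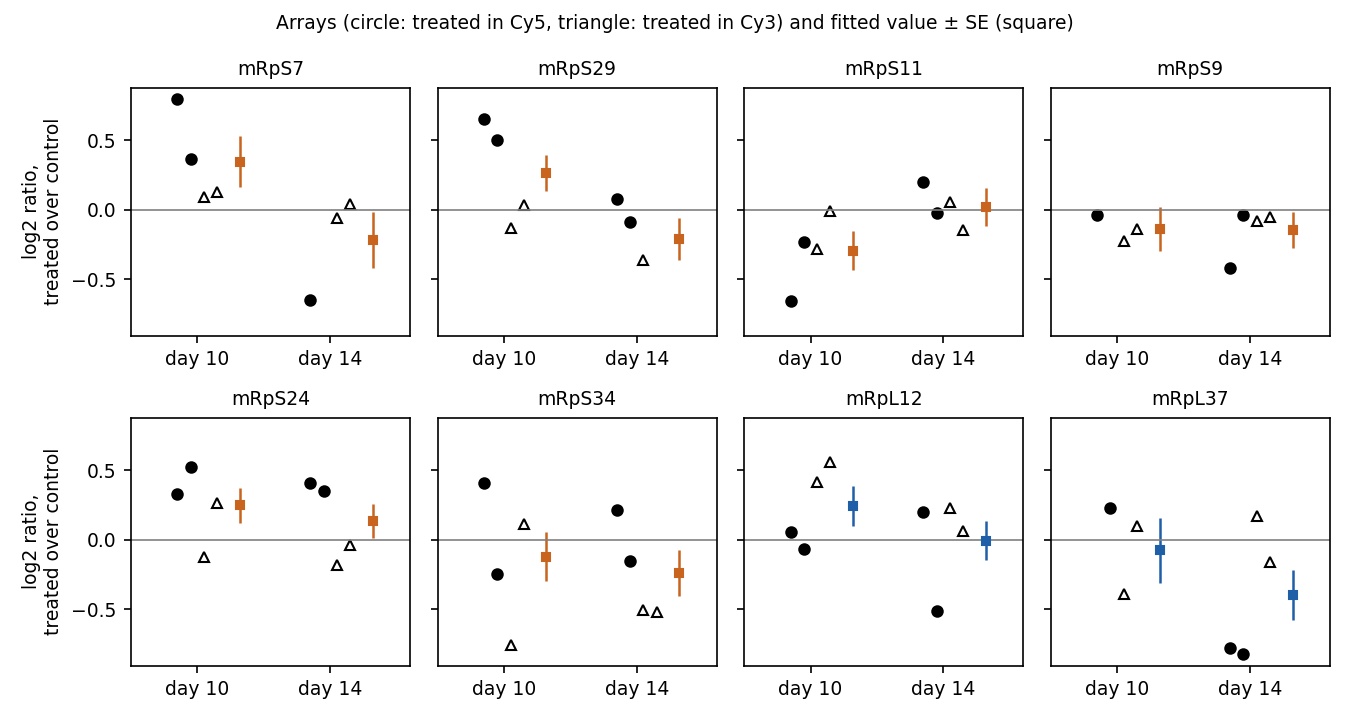
Log2 ratio of treated over control RNA for 8 members at day 10 and day 14, with each array as a point (filled circles for treated RNA in Cy5, open triangles for treated RNA in Cy3) and the fitted value ± SE as a square. mRpS11 lies below 0 and mRpS7 above 0 on all 4 arrays of day 10, and mRpL37 is low at day 14 on the 2 arrays with treated RNA in Cy5.

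The comparison of day 14 with day 10 asks whether the ratio moved after the return to normal food. It could be tested for 18 members (6 large, 12 small) among 6419 features, and 0 members were called, against 0% of features. mRpS29 alone had an unadjusted p under 0.05, 1 of 18 members against 6.26% of features. Its fitted difference, day 14 minus day 10, was -0.47 ± 0.20 (SE, limma adjusted p = 0.773). mRpS7 had a larger difference of -0.56 ± 0.27 and mRpS11 one of 0.32 ± 0.20, neither with an unadjusted p under 0.05. Without day 10 replicate 1 the difference of mRpS11 was 0.19. The median difference was -0.060 with 10 of 18 members below 0, beside -0.032 and 54.6% over all features, and was 0.054 for the large and -0.12 for the small subunit. With the swapped arrays left as deposited, the difference kept its sign for mRpS29 (-0.22), mRpS7 (-0.42) and mRpS11 (0.21), but the subunit medians changed sign, to -0.088 and 0.17.

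The members had a pattern in the deposited Cy5 over Cy3 ratio, before any array was turned. At day 10 the median of the members was -0.093, -0.19, -0.13 and -0.16 on replicates 1 to 4, below the array median whichever RNA carried Cy5. At day 14 it was 0.075, -0.089, -0.053 and 0.045, on both sides. Of the 38 members at day 10, 22 had a mean Cy5 over Cy3 below 0 in both dye orientations, against 32.2% of all features. At day 14 it was 8 of 21, against 30.5%. The fit holds this as a dye term for each gene, and its median over 41 members was -0.19 with 28 below 0, beside -0.0014 and 50.1% for all features. None of the 41 passed at an adjusted p under 0.05, against 0% of features. An unadjusted p under 0.05 was found for 11, against 22.7% of features: 7 were lower, against 9.01%, and 4 higher, against 13.7%. The median was -0.21 for the large and -0.12 for the small subunit, but 0.092 for 19 cytoplasmic ribosomal protein genes and 0.10 for 39 genes of the respiratory chain and ATP synthase.

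**Figure D4:**
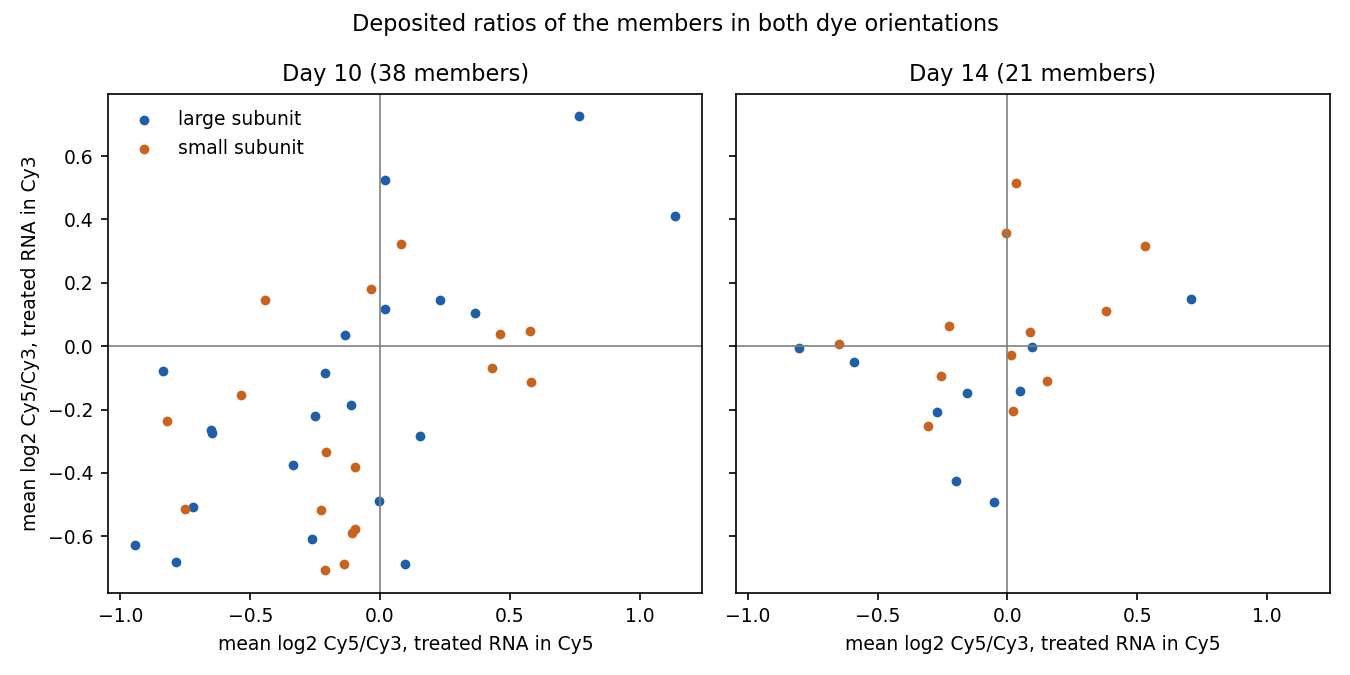
Mean deposited log2 Cy5 over Cy3 ratio, array median at 0, on the arrays with treated RNA in Cy5 (horizontal axis) and with treated RNA in Cy3 (vertical axis), one point per member, large subunit in blue and small subunit in orange. At day 10, 22 of 38 members lie in the lower left, below 0 in both orientations, and at day 14, 8 of 21.

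Individual members, chosen here after their values were seen, had Cy5 over Cy3 ratios on the same side of 0 on every array that measured them, in either direction. mRpS26, a mitochondrion-specific protein, had Cy5 over Cy3 values of -0.75, -0.39 and -0.64 on day 10 replicates 2 to 4. At day 14 it had -0.33, -0.28, -0.41 and -0.096. All 7 lay below 0, with a fitted dye term of -0.42 ± 0.12 (SE, limma adjusted p = 0.120) and treatment ratios near 0 on both days (-0.047 and -0.026). mRpL54, also mitochondrion-specific, went the other way, at 0.99, 0.54, 0.49 and 0.96 at day 10, with a dye term of 0.62 ± 0.14 (limma adjusted p = 0.113). Of 29 members with values on at least 6 arrays, 3 were below 0 on every array (mRpL15, mRpS26 and mRpS33), against 4.46% of features. Another 2, mRpL1 and mRpL54, were above 0 on every array, against 5% of features.

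The low Cy5 over Cy3 median of the members at day 10 matters for the direction of the comparison. If the swapped arrays had been turned before deposit, the same values would read as lower in treated flies at day 10. The fitted median would be -0.24 with 26 of 38 members below 0, beside 0.0046 and 49.6% for all features. Then 10 members would be lower and 2 higher at an unadjusted p under 0.05, against 10.7% and 17.9% of features. Even so 0 members would be called at an adjusted p under 0.05, against 2.64% of features, and the lowest adjusted p of a member would be 0.0586. At day 14 the median would be -0.081 with 13 of 21 below 0, beside -0.0082 and 51.6%, and 5 members would have an unadjusted p under 0.05, against 8.85% of features.

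Other genes of mitochondrial gene expression and its products gave 0 calls on either day with the swapped arrays turned, against 0% of features. Over all features, 43.5% of fitted ratios were below 0 at day 10 and 50.7% at day 14. All 6 translation factors tested at day 10 had fitted ratios above 0 (median 0.15). They included the release factor mRF1 at 0.34 ± 0.21 (SE, n = 3) and the elongation factor mEFTs at 0.26 ± 0.20 (n = 4). On all 3 of its arrays mRF1 was above 0. mEFTs was above 0 on both arrays with treated RNA in Cy5 (1.10 and 0.72) and below 0 on both swapped ones (-0.47 and -0.33). Of 8 genes of mitochondrial transcription, RNA processing and DNA maintenance, 7 were above 0 (median 0.21), and mldr was above 0 on all 4 arrays, at 0.57 ± 0.17 (limma adjusted p = 0.727). Of 6 tRNA synthetase and tRNA enzyme genes 4 were above 0 (median 0.012), with the glutamyl-tRNA synthetase gene GluRS-m at 0.29 ± 0.13. Left as deposited, the swapped arrays gave 4 of 6 factors, 6 of 8 genes of the transcription group and 3 of 6 of the tRNA group above 0. At day 14 these lists had 3, 5 and 3 genes tested, with medians of -0.082, 0.018 and -0.087. As deposited the medians were 0.057, -0.0315 and 0.0031, so all 3 changed sign.

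The cytoplasmic ribosomal protein genes had a fitted median of 0.033 over 16 genes at day 10. At day 14 it was -0.10 over 17 genes, with 12 below 0, against 50.7% of all features. Respiratory chain and ATP synthase genes, whose products assemble with the proteins made by the mitochondrial ribosome, had a median of 0.081 over 36 genes at day 10. COX4 of complex IV was at 0.41 ± 0.18 and ND-20 of complex I at 0.40 ± 0.17. COX4 was high on the arrays with treated RNA in Cy5 (1.46 and 0.88) and below 0 on the swapped ones (-0.39 and -0.31). ND-20 was at 0.57, 0.87, -0.14 and 0.29 on replicates 1 to 4. At day 14 the median of the respiratory chain and ATP synthase genes was -0.052 over 30 genes, with 22 below 0, against 50.7% of all features. Both lists changed sign at day 14 with the swapped arrays left as deposited, to 0.085 and 0.079. At day 10 the medians of the 2 lists were 0.11 and 0.21 as deposited. Under that reading 2 of the 36 respiratory chain and ATP synthase genes were called at an adjusted p under 0.05, against 2.64% of features.

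Most members were spotted once in duplicate: 42 genes had 2 rows and 6 had 4 rows from 2 clones. Adjacent duplicate spots differed by a median of 0.19 in log2 ratio on an array, and by up to 1.58 for mRpS30. Of the genes with 2 clones, mRpS31 had the largest disagreement between them, 1.07 on 1 array, with clone means of 0.47 and 0.081 at day 10. The clones of mRpL9 were measured on different days, 1 at day 10 and the other at day 14. mRpL28 had no value on any array, and 10 members at day 10 and 27 at day 14 had values on fewer than 3 arrays and were not tested.

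Markers of cell types in the head are known only as ratios. The tested markers at day 10 and day 14 numbered 3 and 2 for neurons, 6 and 2 for glia, 7 and 5 for photoreceptors, 9 and 8 for fat body, and 8 and 6 for muscle. Testis markers were tested for 2 genes at day 10 and 0 at day 14. At day 10, 5 of 6 glial markers were below 0 (median -0.19), as were 7 of 8 muscle markers (median -0.059). Over all features 43.5% were below 0. All 3 neuronal markers had fitted ratios above 0 (median 0.24). Each of these 3 was above 0 on both arrays with treated RNA in Cy5 and below 0 on both swapped ones. Left as deposited, the swapped arrays gave medians of -0.22 for glial, 0.14 for muscle and 0.74 for neuronal markers, so muscle markers changed sign. Photoreceptor markers (4 of 7 below 0, median -0.019) and fat body markers (4 of 9, median 0.087) lay on both sides at day 10. As deposited their medians were 0.45 and 0.32. At day 14, 6 of 8 fat body markers (median -0.094) and both glial ones (median -0.37) were below 0, and as deposited the medians were 0.17 and -0.094. Also below 0 were 4 of 5 photoreceptor markers (median -0.10) and 4 of 6 muscle markers (median -0.093). As deposited these 2 medians were 0.32 and 0.11. Of the neuronal markers 1 of 2 was below 0, and over all features 50.7% were below 0 at day 14. The part of the markers in the members' ratios was not tested.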

How the data were processed

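Head RNA was measured on 8 2-colour cDNA arrays. The authors deposited log2 ratios, with no separate intensities, which per the series text were quantified with GenePix Pro 6.0 and ratio-normalised with Acuity 4.0. Per the series text, spots were filtered on intensity, saturated pixels, flags, uniformity and signal over background. The intensity behind a value is unknown. Precision is limited by how many arrays there are and by differences between the spots and clones of a gene. Each array was centred on its median, 2 values at the cap of the ratio were left out, and swapped arrays had their sign turned. Genes came from the platform annotation, updated by gene ID to RefSeq (Release 6 plus ISO1 MT), which matched 14894 of 15116 rows naming 1 gene. The array's genome build is not given in the sources used here. All rows of a gene were averaged per array.

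All arrays entered 1 limma fit (limma 3.58.1, R 4.3.3) with a mean per day and a dye term for each gene, on features with values on at least 3 of 4 arrays. P values were adjusted over all features by the Benjamini-Hochberg method at 0.05. The fit was tested on simulated data. With missing arrays, a fitted ratio is not the plain mean. The series text calls the arrays biological replicates. Members with the 3 smallest p values, and the lowest and highest, were named for each subunit and day. In the difference between days the 3 smallest p values were named. Alternatives were each day alone, no dye term, no centring, print-block centring, scaling, row medians, other array minimums, unturned swapped arrays, kept capped values, a replicate block and each array left out. The members and lists were chosen with earlier results of these data known. Sequences are not shown.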

Additional observations from a re-analysis of the deposited data

Results flagged for a closer look

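1 value stood apart among 20 groups of 4 arrays examined, namely the subunit medians and the named members with all 4 values; chance alone marks about 1 group in 20. It was mRpS9 at day 14, whose replicate 1 lay at -0.416 while the nearest other array lay at -0.080. That gap was 0.884 of the whole range, above Dixon's critical value for 4 arrays. Without that array the fitted ratio of mRpS9 at day 14 was the weakest of its 4 leave-one-out values, -0.040, against -0.15 with it.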

How the results depend on the processing

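0 members were called under every alternative, on either day and in the difference, including each array left out in turn. Without 1 array of the same day, 26 to 33 members were tested at day 10 and 15 to 18 at day 14. The minimum of 3 arrays stayed, so members with values on only 3 arrays dropped out where 1 of these was removed. With the swapped arrays taken as already turned, members named for their p value in a comparison changed direction in it as follows: mRpL21 (-0.29) and mRpL12 (-0.25) at day 10, and mRpL15 (-0.31), mRpS34 (0.27) and mRpS29 (0.087) at day 14. At day 10, mRpS9 (0.065), mRpL37 (0.100), mRpS34 (0.20) and mRpL15 (-0.36) changed sign too; the cause was not tested. Under that setting 304 features, none of them members, were called at day 10, against 0. Day 14 fitted alone called 70 features and arrays scaled to one spread 39, against 0, and again 0 members. Without centring, the median of all features moved from 0.041 to -0.040 at day 10 and from -0.0026 to -0.086 at day 14, and the small-subunit median at day 14 became -0.078. Named members measured on every array of a day moved by the same amount on that day. At day 10 mRpL12 and mRpS24 both moved to 0.16, and at day 14 mRpS9 moved to -0.23. Named members with a missing array moved by other amounts, such as mRpL15, to 0.062 at day 14. Leaving out 1 array in turn, the large minus small difference ranged from -0.066 to 0.025 at day 10 and from -0.075 to 0.066 at day 14, mRpL37 at day 14 from -0.57 to -0.29, and mRpS11 at day 10 from -0.39 to -0.17. Same-numbered arrays of the 2 days deviated together with correlations of 0.064, 0.38, 0.38 and 0.042, and the labels give them no shared batch. These were not set beside arrays of different numbers, so whether the numbers pair the arrays was not tested. With the replicate block in place of the dye term, 0 members were called in the difference and mRpS29 was at -0.46.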
